A study of Bos taurus with 15 samples.

Results

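The genes described here are 4 genes of steroid hormone synthesis, STAR, CYP11A1, HSD3B1 and CYP19A1, in bovine (Bos taurus) oocytes and preimplantation embryos. They were chosen by name, and every probe set whose current symbol or identifier was one of theirs was taken: 1 each for STAR, CYP11A1 and HSD3B1 and 4 for CYP19A1, which gave 7 of the 24016 probe sets tested and 4 of the 9155 genes named on the array. Each probe set was measured on 15 Affymetrix Bovine Genome arrays, with 3 arrays of oocytes, 2 of 1-cell embryos, 1 each of 2-cell, 4-cell, 8-cell and 16-cell embryos, 3 of morulae and 3 of blastocysts. The oocytes came from aspirated follicles and were matured in vitro, and the embryos were fertilised and cultured in vitro, with cumulus cells stripped off after fertilisation. No group carried a treatment or an altered genotype, so the groups differ by stage. Their RNA went through 3 rounds of amplification before labelling, and the labels call replicate arrays biological. How many oocytes or embryos went into an array, and how cumulus cells were taken off the oocyte samples, is not given in the sources used here.

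Steroid hormones are made from cholesterol in a fixed order of steps. STAR moves cholesterol to the inner mitochondrial membrane, where CYP11A1 cuts its side chain to give pregnenolone. HSD3B1 turns pregnenolone into progesterone, and CYP19A1, aromatase, turns androgens into oestrogens. In the ovary these genes are best known from the theca and granulosa cells of the follicle and from luteal cells. In many mammals the trophoblast of the placenta also makes steroids. A transcript of such a gene in an egg or embryo says nothing about enzyme activity or hormone.

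The stage labels were checked against marker genes. All 9 measured oocyte markers were lower in morulae and in blastocysts than in oocytes, and 8 of 9 measured trophectoderm markers were higher in blastocysts than in oocytes, while ELF5, a trophectoderm transcription factor, was lower at very low signal. The replicate arrays were not alike in one respect. Added control transcripts gave signal on 9 arrays (oocyte 2 and 3, 1-cell 2, morula 3, blastocyst 3 and the 4 single arrays) and stayed near background on the other 6, so each replicated stage held arrays of both classes. For GAPDH the middle part of the transcript gave 0.0374 to 0.237 of the signal of its 3′ end on oocyte arrays, a ratio that tracks RNA length. It was 0.100 to 0.625 on morula arrays and 0.339 to 0.643 on blastocyst arrays. Signals are intensities on a linear scale, and the median array signal lay between 39.7 and 62.1. The table used here holds no detection call, so a signal below the array's median is reported as low without being read as absence.

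STAR, the cholesterol carrier at the start of the pathway, had a high signal on arrays of oocytes and of the first cleavages. Its signal was lower in morulae and blastocysts. Its probe set, Bt.4709.1.S1_at, read 2537, 2958 and 2640 in oocytes and 2595 and 4462 in 1-cell embryos. The single arrays read 1401 at the 2-cell, 3060 at the 4-cell, 4472 at the 8-cell and 537 at the 16-cell stage. Morula arrays read 78.0, 94.98 and 907, and blastocyst arrays 140, 202 and 83.4. The 8 arrays up to the 8-cell stage thus lay between 1401 and 4472, and every later array lay below all of them. The signal was above its array's median on 15 of 15 arrays, the late ones included: on the oocyte arrays 93.1% to 94.5% of probe sets read lower, on blastocyst arrays 58.5% to 68.0%.

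By stage mean, the order of STAR ran from the 8-cell array through 1-cell embryos (3529 ± 1320, SD, n = 2), the 4-cell array, oocytes (2712 ± 219, SD, n = 3), the 2-cell array and the 16-cell array to morulae (360 ± 474, SD, n = 3) and blastocysts (142 ± 59.2, SD, n = 3). The 1-cell arrays enclosed the 4-cell value and overlapped the oocytes, and the 8-cell array read little more than the higher of them, so these stages cannot be ordered. The 16-cell value lay inside the morula range, and the morula range enclosed all 3 blastocysts. The largest step between neighbouring stages was from the 8-cell to the 16-cell array, 8.32-fold on the linear scale, and with 1 array at each stage it has no replicate check.

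Of the 5 comparisons tested with limma, STAR passed in morula against oocyte and in blastocyst against oocyte. In morulae it fell by 3.68 on the log2 scale (SE 0.78, 95% interval -5.41 to -1.94, adjusted p = 0.00845), and in blastocysts by 4.18 (SE 0.78, interval -5.92 to -2.45, adjusted p = 0.00433), which is 18.2-fold. All 3 arrays of each late stage were below all 3 oocyte arrays. The share of all probe sets that separate in this way is not given here. Such separations, here and below, are therefore descriptions that add no support to a test. Changes are of log2(intensity + 16), which understates changes of low signals. Whole oocytes and embryos were measured, so fewer cells holding a transcript and less of it per cell cannot be told apart. The 1-cell change was 0.33 (SE 0.87, interval -1.61 to 2.27, adjusted p = 1). The mean of the 2-cell, 4-cell and 8-cell arrays, called the cleavage stages below, differed from the oocyte mean by -0.01 (SE 0.78, interval -1.75 to 1.72, adjusted p = 0.9997). These intervals leave room for changes of more than 1 log2 unit in either direction. Blastocysts and morulae differed by -0.50 (SE 0.78, interval -2.24 to 1.23, adjusted p = 0.979), with overlapping arrays.

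Morula 3 stood apart for STAR. It read 10.5 times the mean of the other 2 morulae, and without it the morula change was -4.74. That array carried the control transcripts, had the lowest GAPDH ratio of its stage, and read more than 4 times both other morulae for 3 of 9 stromal markers, 1 of 24 cumulus, granulosa and theca markers and 1 of 9 oocyte markers (OOEP, 3251). The share of all genes that did so is not given here, so these marker counts have no background to be read against. Within the arrays with control signal, where each of the 2 later stages kept 1 array and oocytes 2, the morula change was -1.61 (adjusted p = 0.404) and the blastocyst change -4.82 (adjusted p = 0.230). Within the arrays without it, where oocytes kept 1 array and each later stage 2, the changes were -4.64 (adjusted p = 0.00645) and -3.79 (adjusted p = 0.00905). A stage with 1 array is assumed in these fits to vary like the others. The size of the morula change therefore depended on morula 3, while the changes were below 0 in both classes. What part the array's other differences had in its STAR signal was not tested.

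**Figure D1:**
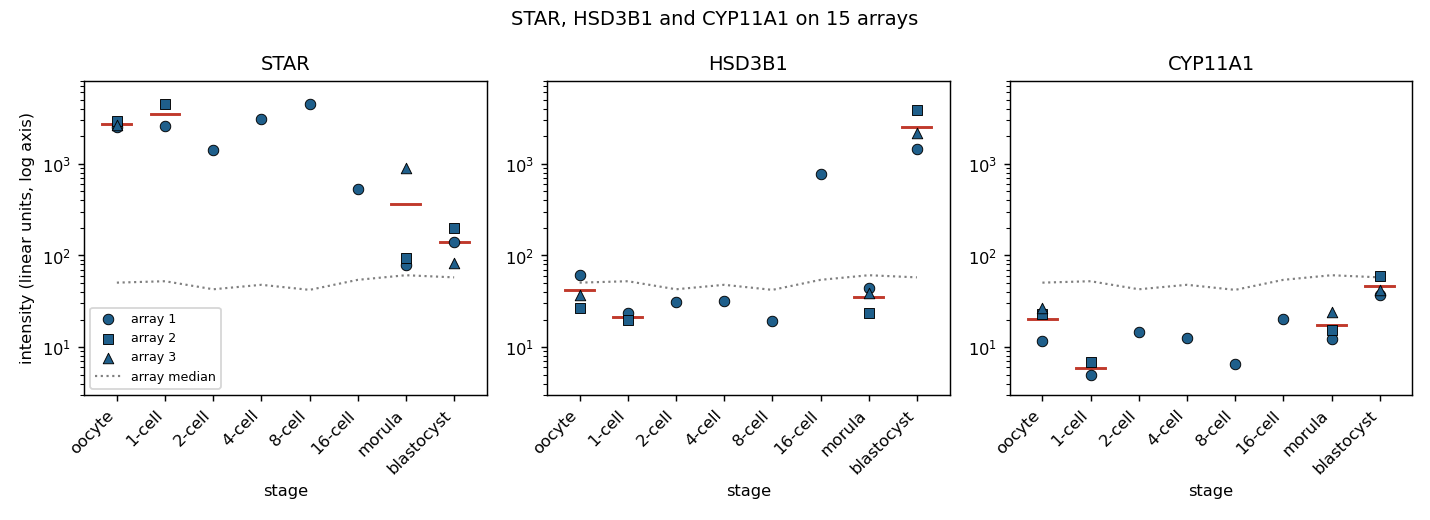
Intensity of STAR, HSD3B1 and CYP11A1 (linear units on a log axis) on each of 15 arrays by stage, with marker shapes for array number, red bars for the mean of replicated stages and a dotted line for the median over all probe sets (median of the stage's array medians). STAR is high up to the 8-cell array and low later except on morula 3 (907), HSD3B1 is high on the 16-cell array (780) and all 3 blastocysts, and CYP11A1 stays near or below the median.

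CYP11A1, the enzyme that cuts the cholesterol side chain, had a low signal at every stage. Its probe set, Bt.7190.1.S1_at, read 11.7, 23.0 and 26.9 in oocytes, 4.98 and 6.91 in 1-cell embryos, and 14.7, 12.4, 6.55 and 20.3 on the 2-cell, 4-cell, 8-cell and 16-cell arrays. Morula arrays read 12.1, 15.3 and 24.2, and blastocyst arrays 37.4, 59.6 and 42.1. All 3 blastocysts were above the other 12 arrays, yet blastocyst 2 alone was above its own array's median.

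The blastocyst change of CYP11A1 against oocytes was 0.78 on the log2 scale (SE 0.23, 95% interval 0.26 to 1.30, adjusted p = 0.0404), a 1.72-fold rise of intensity + 16. It passed the threshold narrowly, and 11 of 17 alternative settings ended the call, with a change of 0.64 (adjusted p = 0.114) after quantile normalization and 0.60 (adjusted p = 0.212) after centring arrays on their medians. Leaving out any 1 blastocyst, oocyte 1 or oocyte 2 also ended it. Against morulae the change was 0.91 (SE 0.23, adjusted p = 0.240), with all 3 blastocysts above all 3 morulae. The 1-cell arrays were both below all oocyte arrays, by -0.71 (SE 0.26, adjusted p = 0.466). Morulae differed from oocytes by -0.13 (adjusted p = 0.760). At signals this low the direction of the blastocyst difference was the same in all 17 alternatives, and its statistical support was not.

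HSD3B1, the enzyme that makes progesterone from pregnenolone, had a low signal in oocytes and early embryos and a high one in blastocysts. Its probe set, Bt.4760.1.S1_at, read 60.8, 26.8 and 37.0 in oocytes, 23.6 and 19.5 in 1-cell embryos, and 31.3, 31.8 and 19.4 on the 2-cell, 4-cell and 8-cell arrays. The 16-cell array read 780, the morula arrays 44.0, 23.3 and 39.0, and the blastocyst arrays 1458, 3867 and 2148. The blastocysts were thus above every other array, and the 16-cell array was above the remaining 11. On blastocyst arrays 87.6% to 94.6% of probe sets read lower than HSD3B1, against 32.3% to 45.7% on morula arrays.

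By stage mean HSD3B1 was highest in blastocysts (2491 ± 1240, SD, n = 3), followed by the 16-cell array and then by oocytes (41.5 ± 17.4, SD, n = 3) and morulae (35.4 ± 10.8, SD, n = 3). The 2-cell and 4-cell arrays lay inside the oocyte and morula ranges. The 1-cell mean (21.6 ± 2.90, SD, n = 2) and the 8-cell value were lower, with 1 of the 1-cell arrays inside the morula range. The 16-cell value was 12.8 times the highest and 24.9 times the median of the 11 other arrays that were not blastocysts, and the lowest blastocyst was 1.87 times the 16-cell value. The 3 morulae, the stage between, overlapped the oocyte arrays, and the single 16-cell array has no replicate check.

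Blastocysts exceeded morulae by 5.51 on the log2 scale (SE 0.42, 95% interval 4.57 to 6.46, adjusted p = 0.00352), a 45.7-fold difference. They exceeded oocytes by 5.37 (SE 0.42, interval 4.43 to 6.32, adjusted p = 4.22e-05), 41.4-fold. In both cases 3 of 3 blastocysts were above all arrays of the other stage. Against morulae HSD3B1 ranked 1 of 24016 probe sets by p and 2 by size of rise, in a comparison where 40 probe sets passed. Morulae and oocytes differed by -0.14 (SE 0.42, interval -1.09 to 0.80, adjusted p = 0.864). The changes in 1-cell embryos (-0.57, SE 0.47, adjusted p = 0.988) and at the cleavage stages (-0.38, SE 0.42, adjusted p = 0.735) did not pass.

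The size of the HSD3B1 difference between blastocysts and morulae was 5.14 to 5.84 when any 1 array of either stage was left out, and the call held each time. It was lost, with adjusted p = 0.291, when the 6 arrays of these stages were fitted alone, a fit in which no probe set passed and 1738 had an unadjusted p under 0.05. It was also lost within each class of arrays, at 5.30 (adjusted p = 0.471) with control signal, where each stage kept 1 array, and 5.62 (adjusted p = 0.207) without it, where each kept 2. In both classes the value was about as large. The blastocyst difference from oocytes missed the threshold in the class with control signal (5.50, adjusted p = 0.230).

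CYP19A1, aromatase, was low on every array with each of its 4 probe sets. Bt.4447.1.S1_at read 1.00 to 22.4, Bt.4447.2.S1_a_at 5.82 to 39.4, Bt.4447.3.A1_at 1.70 to 33.3 and Bt.4447.3.S1_at 1.24 to 15.6 over the 15 arrays, and none was above its array's median on any of them. Their highest arrays differed, being the 16-cell array, blastocyst 3, oocyte 2 and the 8-cell array in that order. The 4 probe sets therefore gave no common course over the stages, and the 6 correlations among them over the 15 arrays, of log2 values, ran from -0.26 to 0.46. The table of current gene names lists CYP19P1, a name of an aromatase pseudogene, among the older names of this identifier, so which probe sets can pick up related sequence is not known here.

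No CYP19A1 probe set passed in any of the 5 comparisons. Its 20 changes lay between -1.01 and 0.55, and the smallest adjusted p was 0.130, for a change of 0.45 of Bt.4447.1.S1_at in morulae, where all 3 arrays were above all 3 oocytes. Bt.4447.3.A1_at was lower in later stages in some alternatives, with a blastocyst change of -1.13 (adjusted p = 0.00364) when the arrays numbered 3 were left out. The number of arrays limits the precision at such signals.

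**Figure D2:**
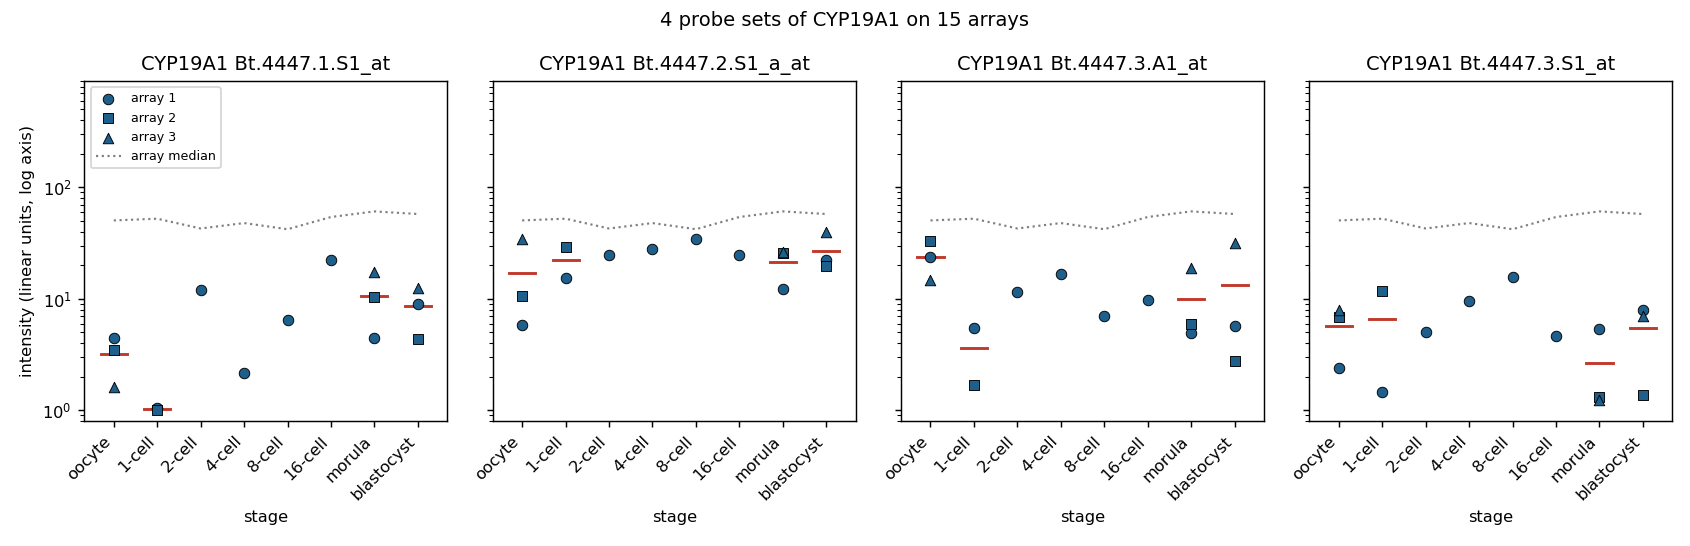
Intensity of the 4 CYP19A1 probe sets (linear units on a log axis) on each of 15 arrays by stage, with marker shapes for array number, red bars for the mean of replicated stages and a dotted line for the median over all probe sets. Every point lies below the line, and the stage with the highest point differs between the probe sets.

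Over the 4 genes, 5 of 35 tests passed: STAR in 2 comparisons, HSD3B1 in 2 and CYP11A1 in 1. For each comparison the share of all 24016 probe sets that passed gives the background. In 1-cell embryos 0.271% passed and no member did. At the cleavage stages 6.2% passed and no member did. In morulae 18.9% passed, and 1 of the 7 member probe sets, STAR, did. In blastocysts against oocytes 19.3% passed, and 3 of 7 did, those of STAR, HSD3B1 and CYP11A1. In blastocysts against morulae 0.167% passed, and 1 of 7 did, that of HSD3B1. The oocyte arrays serve in 4 of these comparisons and the morula and blastocyst arrays in 2 each, so they are not independent of each other. STAR and HSD3B1 were high at opposite ends of the series: on the 3 blastocyst arrays HSD3B1 read 1458 to 3867 where STAR read 83.4 to 202, and on the 3 oocyte arrays HSD3B1 read 26.8 to 60.8 where STAR read 2537 to 2958. Levels of different probe sets are not comparable on an array, and each gene is read here against itself.

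**Figure D3:**
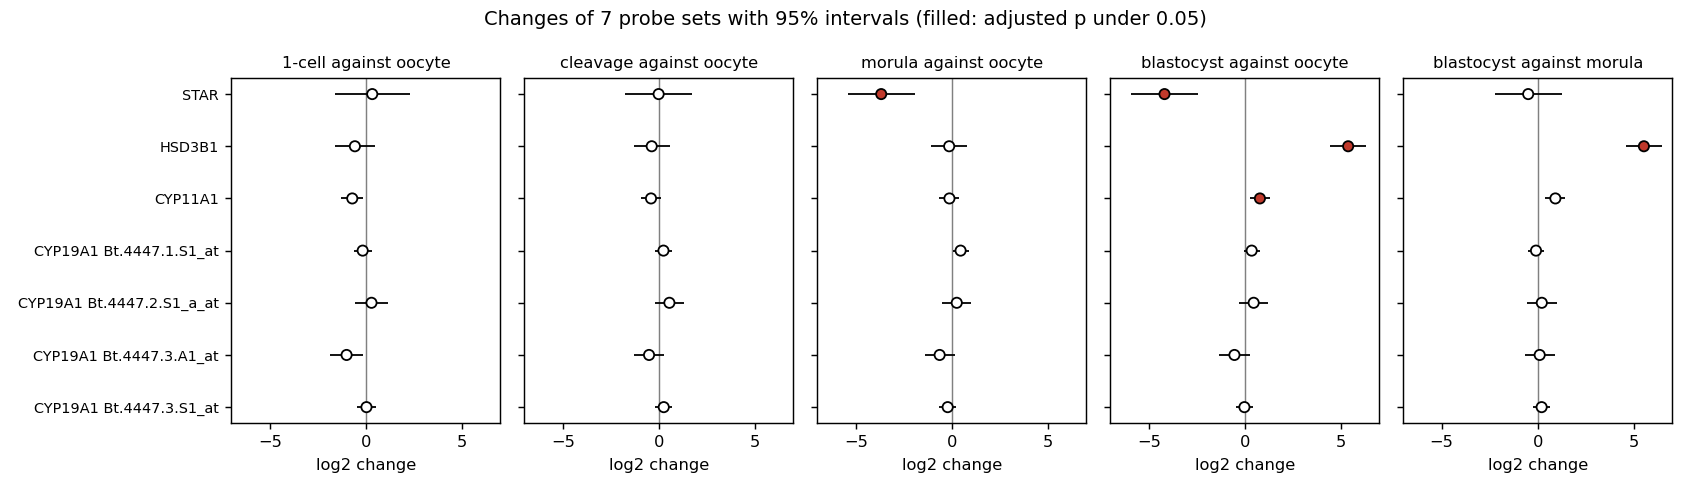
Change on the log2(intensity + 16) scale with its 95% interval for the 7 probe sets in the 5 comparisons, filled where the adjusted p was under 0.05. The filled points are STAR at -3.68 and -4.18, HSD3B1 at 5.37 and 5.51 and CYP11A1 at 0.78.

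Follicle cells express all 4 genes, so markers of other cells were read beside them. The summed signal of 24 measured cumulus, granulosa and theca markers (of 28 listed) was 6184 to 10425 on oocyte arrays, 5105 to 9808 from the 1-cell to the 8-cell stage, 14682 on the 16-cell array, 14878 to 17208 in morulae and 16056 to 18627 in blastocysts. HAS2, which makes hyaluronan in the cumulus, and SERPINE2, a protease inhibitor, carried most of it. Without these 2, which were left out after seeing the data, the other 22 summed to 3845, 2623 and 3741 in oocytes, 1298 to 2244 from the 1-cell to the 8-cell stage, 5876 on the 16-cell array, 1420, 1178 and 1659 in morulae and 2941, 7395 and 4172 in blastocysts. PTGS2, 1 of the 22, read 1855, 6410 and 2598 in blastocysts and so carried most of the blastocyst sums. The order of oocytes and morulae turned with HAS2 and SERPINE2: with them the morulae were above the oocytes, and without them below. HAS2 was summed from its brightest probe set, which changed by 2.53 in morulae against oocytes, where the others changed by 3.83 and -6.20. SERPINE2 changed by 0.69 and did not pass with limma (adjusted p = 0.225). The rise of the full sum thus depended on the HAS2 probe set used. On oocyte arrays 11 to 12 of the 24 markers were above the array's median.

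Single markers of follicle cells went both ways. Of the 24, each read from its brightest probe set, 1 rose and 3 fell in morulae, and 3 rose and 2 fell in blastocysts against oocytes. Over all 9155 genes 17.8% rose and 8.67% fell in morulae, and 18.1% rose and 9% fell in blastocysts. The counts of the 24 markers were not tested against these shares. The 3 probe sets of HAS2 disagreed in blastocysts, with changes of 2.29 (SE 0.34, adjusted p = 0.00128) for the brightest, 3.58 (SE 0.31, adjusted p = 6.51e-05) for another and -6.13 (SE 0.44, adjusted p = 3.11e-05) for the third, which read 2205, 3044 and 1017 in oocytes. VCAN, a matrix proteoglycan, fell by 5.12 (SE 0.37, adjusted p = 3.11e-05), from 1065, 713 and 1396 in oocytes, and a second of its 3 probe sets also fell. TNFAIP6, a matrix protein of the expanded cumulus, read 562, 70.2 and 1072 in oocytes and fell by 3.35 (SE 0.90, adjusted p = 0.0270). FSHR, the receptor that defines granulosa cells, read 3.14 to 9.56 on oocyte arrays and 15.8 to 44.8 in blastocysts, and FOXL2, a granulosa transcription factor, read 54.1, 53.8 and 42.6 in oocytes with the brighter of its 2 probe sets, close to the array medians. The part of follicle cells in the STAR signal of oocytes was not tested.

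The 9 stromal markers summed to 206 to 755 on the arrays up to the 8-cell stage, 6036 on the 16-cell array, 1749, 1680 and 5159 in morulae and 4887, 4032 and 855 in blastocysts. PDGFRA, a growth factor receptor that early embryos also express, was the 1 stromal marker that passed in morulae and in blastocysts. PDGFRA read 4481, 3315 and 512 in blastocysts and so carried most of the stromal sums there. Because embryos also express PDGFRA, the blastocyst sums cannot be read as amounts of stromal cells. HSD3B1 was therefore not compared with them. The part of stromal cells in the HSD3B1 values was not tested. The 16-cell array was the highest of the 15 for 3 of 9 stromal and 5 of 24 follicle cell markers, where it was the highest for 12.8% of all 9155 genes. The 3 were the collagen COL1A2 at 2432, at most 260 elsewhere, the filament protein VIM at 1959, at most 86.9 elsewhere, and the matrix proteoglycan LUM at 1397, at most 256 elsewhere, while COL1A1 read at most 18.9 on any array. The other COL1A2 probe set read 5.93 on the 16-cell array, where the brighter COL3A1 probe set read 25.9, POSTN 12.7 and THY1 15.3. The 5 follicle cell markers were FST at 945, GJA1 at 3159, CD44 at 571, INSL3 at 27.6 and PTGER2 at 14.6. FST read at most 124 elsewhere, GJA1 at most 692 and CD44 at most 175. The other GJA1 probe set read 17.3 on the 16-cell array. The 16-cell array thus read high for COL1A2 and GJA1 with 1 probe set each, VIM, LUM, FST and CD44. It read low for COL3A1, POSTN and THY1, beside its HSD3B1 value of 780. The part of other cells in that value was not tested.

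**Figure D4:**
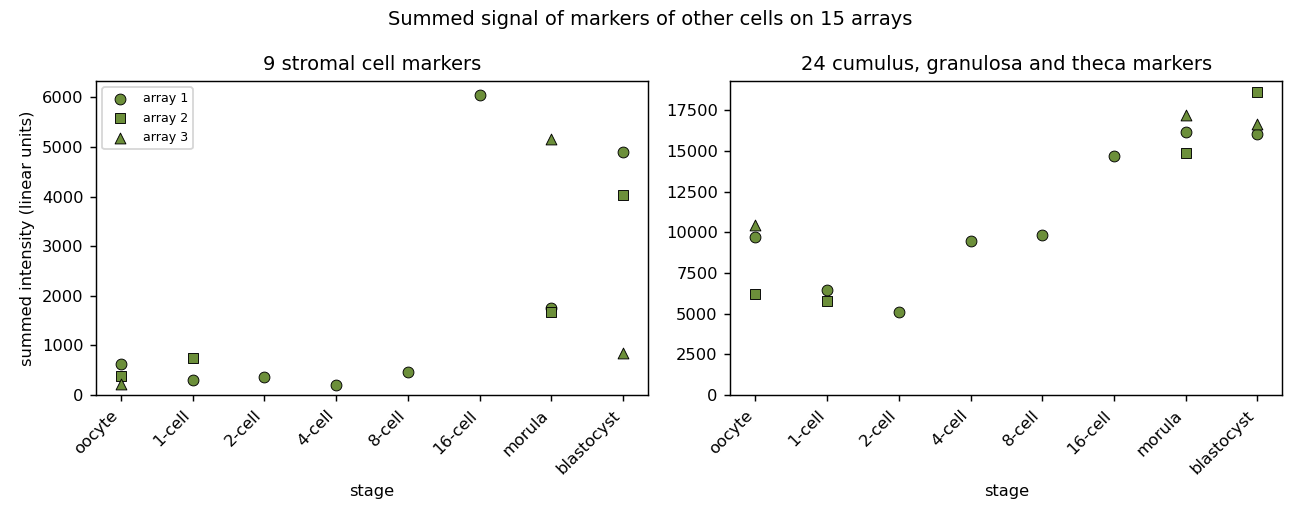
Summed intensity (linear units) of 9 stromal markers and of 24 cumulus, granulosa and theca markers on each of 15 arrays by stage, with marker shapes for array number. The stromal sum is highest on the 16-cell array (6036). The follicle cell sum, carried mostly by SERPINE2 and the brightest HAS2 probe set, is higher from the 16-cell array on than before.

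The rest of the pathway was read from 5 lists with 94 genes, of which 63 were measured. In 1-cell embryos none passed, where 0.35% of all 9155 genes did and 5 of the 63 had an unadjusted p under 0.05. At the cleavage stages 2 rose and 3 fell, against 7.48% of all genes in either direction. In morulae against oocytes 7 rose, 12 fell and 44 did not pass, against 17.8% of all genes higher and 8.67% lower. In blastocysts against oocytes 10 rose, 10 fell and 43 did not pass, against 18.1% higher and 9% lower. In blastocysts against morulae none passed, against 0.262% of all genes, and 6 had an unadjusted p under 0.05. The median change of the 63 was -0.03 in morulae and 0.06 in blastocysts, beside 0.14 and 0.11 over all genes. The pathway thus showed no common course, and genes within each role went both ways.

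Among 12 measured genes of sterol delivery, 3 rose and 3 fell in morulae. LIPE, a lipase that frees cholesterol from its esters, fell by 4.31 (SE 0.48, adjusted p = 2.54e-04), from a mean of 3053 to 127, though its other 3 probe sets did not pass. LIPA, the lysosomal lipase with the same kind of substrate, fell by 2.93 (SE 0.50, adjusted p = 0.00276). VDAC2, a channel of the outer mitochondrial membrane, rose by 2.87 (SE 0.70, adjusted p = 0.0173), from 67.8 to 660, and its mean in blastocysts was 2265. Like STAR, both lipases were therefore higher in oocytes than at the late stages.

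Of the 5 measured electron donors, which pass electrons to the steroidogenic P450 enzymes, 1 rose and 2 fell in morulae. FDX1, the ferredoxin that serves CYP11A1, fell by 2.07 (SE 0.33, adjusted p = 0.00191), with signals of 4677 to 5592 in oocytes and 1126 to 1277 in morulae. In blastocysts it read 1580 to 3810 and did not pass (-1.05, adjusted p = 0.0522). POR, the reductase that serves microsomal P450 enzymes such as CYP19A1, fell by 1.39 in morulae (SE 0.35, adjusted p = 0.0208) and was already lower at the cleavage stages (-2.58, adjusted p = 0.00311). CYB5R3, a cytochrome b5 reductase, rose by 5.65 (SE 0.62, adjusted p = 2.23e-04), from a mean of 56.3 to 3453. At the stages between, POR read 645, 235 and 92.3 on the 2-cell, 4-cell and 8-cell arrays, where FDX1 read 4256, 5480 and 3507.

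Among 21 measured enzymes of steroid synthesis and conversion, 2 rose and 2 fell in morulae, and 4 rose and 2 fell in blastocysts. HSD11B2, which inactivates cortisol, fell by 4.82 in morulae (SE 0.39, adjusted p = 4.71e-05). It read 1058, 2178 and 1698 in oocytes, 594 (array 1) and 811 (array 2) in 1-cell embryos, 53.5 to 152 on the 2-cell to 8-cell arrays and 21.0 to 48.2 on the 7 later arrays. Unlike STAR, it had passed at the cleavage stages (-3.99, SE 0.39, adjusted p = 6.74e-04), and the difference between the 2 genes was not tested. HSD17B10, a mitochondrial dehydrogenase that also acts on fatty acids, rose by 3.55 (SE 0.70, adjusted p = 0.00595). SULT2A1, a steroid sulfotransferase, fell by 0.75 (SE 0.16, adjusted p = 0.00798) at signals of 6.69 to 32.4, and its other probe set did not pass.

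In the list of 18 measured transcription factors and kinase subunits that drive the steroidogenic programme, 1 rose and 4 fell in morulae. NR4A1, an orphan nuclear receptor that activates steroidogenic genes, fell by 5.21 (SE 0.65, adjusted p = 4.70e-04), from a mean of 3413 to 83.2. NR0B1, a repressor of that programme, fell by 3.56 (SE 0.48, adjusted p = 6.92e-04), and its other probe set did not pass. GATA6, which is also a marker of the inner cell mass lineage, rose by 5.16 (SE 0.58, adjusted p = 2.56e-04), from 341 to 9840. NR5A1, the factor best known for switching on all 4 genes, was picked out after its values were seen: none of its 4 probe sets passed, with morula changes of -0.31 to 0.29. An activator and a repressor of the programme were thus both lower in morulae than in oocytes.

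Of the 7 measured steroid and gonadotropin receptors, 1 fell in morulae and none rose. NR3C1, the glucocorticoid receptor, fell by 3.00 (SE 0.52, adjusted p = 0.00300), from a mean of 234 to 11.3, and its other probe set did not pass. In blastocysts NR3C1 was lower and FSHR higher, the latter at a mean signal of 25.7.

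The 16-cell array, which read high for HSD3B1, was also the highest of the 15 for 4 of the 63 other pathway genes, against 12.8% of all 9155 genes. They were picked out after their values were seen: TSPO, an outer mitochondrial membrane protein that binds cholesterol, at 702, HSD11B1, which activates cortisol, at 690.5, CYP1A1, which hydroxylates oestrogens, at 1683, and FDX2, a ferredoxin, at 2113. Against their highest other array TSPO, HSD11B1, CYP1A1 and FDX2 read 5.00, 10.3, 26.1 and 1.14 times as much. The other 2 probe sets of CYP1A1 read 31.4 and 7.36 on the 16-cell array. The first 3 differed from HSD3B1 in that they were not high in blastocysts, where HSD11B1 read 7.03 to 66.9.

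Genes with a similar course over the 8 stage means were found for STAR and HSD3B1 among 7693 genes whose signal rose above the median at some stage. The courses closest to STAR were those of STAT3 (Pearson correlation 0.985), EXT1 (0.984), TUSC3 (0.984), YAF2 (0.983) and ARPP21 (0.981), and 243 genes had a correlation above 0.9. Over the 15 arrays these 5 correlations were 0.791, 0.966, 0.944, 0.913 and 0.916. EXT1, an enzyme of heparan sulfate synthesis, read 2404 to 4471 in oocytes and 891 on morula 3, above the 314 and 276 of the other morulae, and so shared with STAR the higher value of that array.

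The courses closest to HSD3B1 were those of SERTAD4 (0.969), HEBP2 (0.966), APOA1 (0.954), DSC2 (0.952) and PLEKHO2 (0.950), and 16 genes were above 0.9. DSC2, a desmosomal cadherin of epithelia, read 840 on the 16-cell array, 235, 34.5 and 4.29 in morulae and 1444, 4151 and 1182 in blastocysts. HEBP2, a haem-binding protein, read 250 on the 16-cell array, 33.2 to 97.7 in morulae and 737 to 1331 in blastocysts. APOA1, the main apolipoprotein of high-density lipoprotein, read 154 on the 16-cell array, 23.2 to 63.8 in morulae and 293 to 2519 in blastocysts. All 3 were thus higher on the 16-cell array and in blastocysts than on any morula array, as HSD3B1 was. All courses come from the same arrays, so these likenesses are descriptions and carry no test. The signals of CYP11A1 and CYP19A1 did not reach the median at any stage mean, and no likeness was computed for them.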

How the data were processed

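The authors deposited 1 table of intensities on a linear scale, and how probes were summarised and arrays scaled is not given in the sources used here. Per the labels' protocols, 3 rounds of amplification preceded biotin labelling and hybridization. Stages and replicate numbers came from the labels' titles. Of 24128 probe sets, 112 controls were left out. Symbols were updated by gene identifier through RefSeq's table of assembly ARS-UCD2.0, which matched 13263 probe sets: 13292 had 1 symbol, 86 several and 10638 none. Each gene of a list was read from its probe set with the highest mean. No genome or sequence was used here, so no coordinates or sequences are given.

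The test was limma 3.58.1 in R 4.3.3 on log2(intensity + 16): 1 mean per stage over 15 arrays, 7 residual degrees of freedom, an intensity trend in the variance, and Benjamini-Hochberg adjustment over 24016 probe sets at 0.05. Single arrays added no spread, and the cleavage mean assumes they vary like the replicated stages. Any p-value covers only the spread among replicate arrays, which may be partly technical. The procedure was tested on simulated data. The 4 genes and the lists were chosen with earlier results of these data known. Named genes of a list were the 3 passing with the smallest adjusted p in morula against oocyte, or else the 2 with the highest mean. Likeness took the 5 highest correlations.

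Same-numbered arrays of oocytes, morulae and blastocysts deviated together (oocyte with morula 0.142, 0.107 and 0.182, oocyte with blastocyst 0.278, 0.276 and 0.285, morula with blastocyst 0.195, 0.106 and 0.306). Some arrays of different numbers did so as much, such as oocyte 2 with morula 1 (0.155) and morula 1 with blastocyst 2 (0.304). Only for oocytes with blastocysts were the same-numbered values the highest. The blocked fit was read as an alternative, and pairing by number stays unsettled. For 1-cell embryos the correlations with oocytes were 0.183 and -0.115. Alternatives were quantile normalization, median centring, leaving out the lowest 33% of probe sets, pseudocounts of 1 and 64, no intensity trend, a replicate block, fits of the compared stages alone, and omitting each array in turn. A block for control-transcript class, fits of either class by itself and a fit lacking the 3 arrays numbered 3 were chosen after seeing the data. Figures used matplotlib 3.10.9 in Python 3.11.15.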

Additional observations from a re-analysis of the deposited data

How the results depend on the processing

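Of the 5 member changes that passed, none reversed. STAR kept its call in 17 of 18 alternatives in each of its comparisons and HSD3B1 in 17 of 18 against oocytes and 15 of 18 against morulae, with the exceptions given in the report. For CYP11A1 in blastocysts the call ended with quantile normalization (0.64), median centring (0.60), a pseudocount of 1 (1.19), no variance trend (0.78), the compared stages alone (0.78) and the arrays with control signal (0.51). The last ended all 5: STAR -1.61 in morulae and -4.82 in blastocysts, HSD3B1 5.50 and 5.30. HSD3B1 against morulae also lost its call with the compared stages alone (5.51) and the arrays without control signal (5.62). Leaving out 1 array gave ranges of -4.74 to -3.09 and -4.45 to -3.89 for STAR, 5.00 to 5.70 and 5.14 to 5.84 for HSD3B1 and 0.59 to 0.91 for CYP11A1. The other 30 member changes gave 495 alternative values, of which 9, all of CYP19A1, passed the threshold and 30, in 11 changes, had the other sign. STAR in blastocysts against morulae was one of these, at 0.55 without morula 3.

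Counts of probe sets passing moved by over 1.5 times as follows. The 1-cell count of 65 became 37 with quantile normalization, 35 with median centring, 42 with a pseudocount of 1, 110 with no variance trend, 38 with the replicate block, 419 without the arrays numbered 3 and 8 to 169 leaving out 1 array, lowest without 1-cell 2. The cleavage count of 1488 became 4661 without the arrays numbered 3 and 781 to 2289 leaving out 1 array, lowest without oocyte 1. The morula count of 4550 became 7102 without the arrays numbered 3 and 3260 to 4964 leaving out 1 array. The blastocyst count of 4624 was 3414 to 4821 leaving out 1 array. The blastocyst against morula count of 40 became 13 and 66 with pseudocounts of 1 and 64, 95 without the arrays numbered 3 and 3 to 71 leaving out 1 array, lowest without morula 2. With limma, counts were 0 for the compared stages alone in the 1-cell, cleavage and blastocyst against morula comparisons (1606, 3630 and 1738 probe sets at an unadjusted p under 0.05), for the arrays with control signal in all 5 (895, 2084, 3795, 3476 and 2063) and for those without it in the 1-cell and blastocyst against morula comparisons (4182 and 3404). These fits have fewer arrays.

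The replicate block changed no call of the 7 probe sets: STAR in morulae had adjusted p = 0.0113, HSD3B1 against morulae 0.0198 and CYP11A1 in blastocysts 0.0274. The cleavage arrays share no replicate numbers in a way that a block could use, and have no array without control signal, so neither was fitted there. The filter on the lowest probe sets removed CYP11A1. Without the arrays numbered 3 the pathway genes numbered 11 higher and 15 lower in morulae and 13 and 13 in blastocysts. The shares of all genes in that fit are not given here, and its morula count over all probe sets was also higher. These pathway counts therefore have no background to be read against. Single arrays at 4 stages, the unstated scaling and low signals of CYP11A1 and CYP19A1 limit the precision.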

Other observations

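CYP17A1, the enzyme between the pregnenolone step and the androgens that aromatase uses, read 10.7, 12.3 and 27.3 in oocytes, 39.7, 35.2 and 3.08 in morulae and 66.9, 32.01 and 293 in blastocysts. Its blastocyst change of 1.74 against oocytes did not pass with limma (adjusted p = 0.0854). All 3 blastocysts were above all 3 oocytes, a separation whose share over all probe sets is not given here. One of the 2 probe sets of CYP11B1, an adrenal enzyme of cortisol synthesis, read 56.3 on the 8-cell array and at most 5.92 on the other 14. A probe set of AKR1C4, an aldo-keto reductase, read 91.3 on the 16-cell array and at most 13.6 elsewhere. These genes were picked out after their values were seen.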
